A study of Homo sapiens with 12 samples.

Results

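METTL1 and WDR4 encode the catalytic subunit and the partner subunit of an RNA methyltransferase, and their own transcripts were followed through a METTL1 knockdown experiment. Both genes were taken by their Ensembl identifiers, ENSG00000037897 for METTL1 and ENSG00000160193 for WDR4. They are 2 of the 18569 gene identifiers in the data, and they hold 124 of the 842183 listed positions, of which 26 belong to METTL1 and 98 to WDR4. The names rest on the identifiers, since the data and the reference table used here do not pair identifiers with symbols. In the reference table METTL1 lies on chromosome 12 between the protein-coding genes CYP27B1 and EEF1AKMT3, and WDR4 lies on chromosome 21 between PDE9A and NDUFV3.

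METTL1 transfers a methyl group to the N7 atom of guanosine, giving m7G, and it works in a complex with WDR4. WDR4 has no methyltransferase activity of its own and helps hold the tRNA against the catalytic subunit. The complex is best known for m7G in the variable loop of tRNAs, and it has also been tied to m7G inside mRNAs and in some miRNA precursors. The yeast counterparts are Trm8 and Trm82.

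The cells were LNCaP-AI, a castration-resistant prostate cancer line derived from the androgen-sensitive line LNCaP. The knockdown group carried a lentiviral short hairpin RNA against METTL1 (shMETTL1) and the control group a scrambled hairpin (shscramble), both stably expressed. Androgen deprivation was common to the knockdown and control groups, so no comparison here bears on it. Each group had 3 replicates, each with an AlkAniline-Seq library and an input library, giving 12 libraries. AlkAniline-Seq cleaves RNA chemically at m7G and sequences the ends that result, so that reads gather at single positions, and the input is the same RNA without that selection. The study describes its data as coming from 3 biological replicates. Nothing in the labels says whether the replicates were separate cultures, so the p-values measure only the spread between these samples.

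The hairpin is shown because METTL1 is the gene it was designed against. The study's list of oligonucleotides gives it as 1 entry in 2 parts of 23 bases each, and capitals mark the 21 bases of each part that are complementary to the other. Read as a single run, the entry is 46 bases long, with 4 unpaired bases between the arms.
shMETTL1 first part: GGAATGTAGTCCATCTAAACTcg
shMETTL1 second part: aaAGTTTAGATGGACTACATTCC
The 21 paired bases were not found on either strand of the METTL1 reading frame that the same supplement gives for the enzyme activity mutant. That frame is 831 bases long, and its codons are altered at the listed mutant sites. The longest run shared with it was 9 bases. The untranslated parts of the METTL1 transcript were not analysed here.

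For every position and library the data hold a count, the reads assigned to that position, and a coverage, the reads that span it. Count totals were 2474464 to 2764417 in shMETTL1 and 1421551 to 2624431 in shscramble AlkAniline-Seq libraries, and 2783709 to 3258499 in shMETTL1 and 3045523 to 3152800 in shscramble input libraries. Positions carry no coordinate in these data and are numbered here in their listed order within each gene. Between-replicate scatter was large, with a coefficient of variation across genes of 0.90 in AlkAniline-Seq and 0.81 in the input as estimated by edgeR.

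One AlkAniline-Seq library stood apart from the others. Of the positions holding at least 50 AlkAniline-Seq reads in shscramble replicate 2, 99.9% were also read in shscramble replicate 1, and for replicate 3 this share was 100%. For every other ordered pair of AlkAniline-Seq libraries that share was 31.1% to 63.4%, and for pairs of input libraries 51.0% to 96.0%. At such positions of replicate 2 with no read in replicate 3, the count in replicate 1 had a median of 0.106 times that in replicate 2, and at those of replicate 3 with no read in replicate 2 a median of 0.147 times that in replicate 3. Of the 89 METTL1 reads of replicate 1, 18 fell on 6 positions that were also read in replicate 2 or 3, and 71 fell on 4 positions of its own. Of its 73 WDR4 reads, 70 fell on 8 such shared positions. The fold changes and the differences in share and coverage that use this library are therefore also given without it.

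METTL1 reads were lower in every shMETTL1 AlkAniline-Seq library than in any shscramble library. In shMETTL1, METTL1 had 0, 4 and 3 reads at all of its positions together in replicates 1, 2 and 3, against 89, 130 and 7 in shscramble. In counts per 1000000 reads (CPM) after TMM scaling these were 0, 1.598 and 1.26 in shMETTL1, against 48.2, 48.0 and 4.89 in shscramble. The groups did not overlap, although shscramble replicate 3 lay much nearer to the knockdown libraries than to its own group. A lack of overlap in this direction was found for 7.38% of the 11097 gene identifiers tested. The 0 reads of shMETTL1 replicate 1, among 2512434 in the library, allow a level of up to 1.19 CPM before scaling (3 reads). Such limits and the intervals given below cover counting error only.

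The mean of the METTL1 AlkAniline-Seq reads was 0.953 ± 0.843 CPM in shMETTL1 and 33.7 ± 24.9 CPM in shscramble (SD, n = 3 each). The log2 fold change was -5.07 (SE 1.80), and it did not pass after Benjamini-Hochberg adjustment of the edgeR quasi-likelihood test over all genes (adjusted p = 0.55). Of all genes tested, 0.00901% were called lower at an adjusted p under 0.05 by this test, and 3.14% were lower at an unadjusted p under 0.05, as METTL1 was. By p-value METTL1 ranked 244 of 11097 genes. DESeq2 called METTL1 lower on the same counts (log2 fold change -5.13, SE 1.51, adjusted p = 0.043), together with 0.856% of genes in that direction. Without shscramble replicate 1, DESeq2 gave METTL1 a log2 fold change of -4.78 (SE 2.14) and no adjusted p, so that the call was lost, and it called 0.35% of genes lower. Without shscramble replicate 1 the edgeR log2 fold change was -4.74 (adjusted p = 0.97). AlkAniline-Seq reads depend on the amount of transcript and on its cleavage at m7G, and these counts alone do not separate them. In bulk RNA, fewer cells carrying the transcript and less of it per cell cannot be told apart either.

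**Figure D1:**
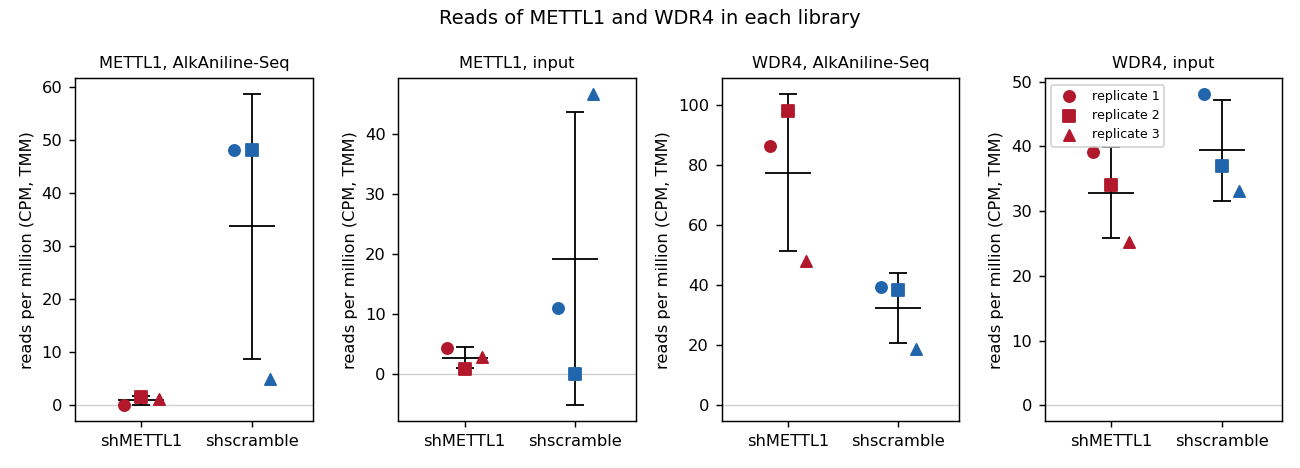
Reads of METTL1 and WDR4 in CPM in each AlkAniline-Seq and input library, with shMETTL1 left of shscramble; points are libraries and bars give the mean and SD of 3 replicates. METTL1 lies at 0 to 1.598 CPM in the shMETTL1 AlkAniline-Seq libraries and at 4.89 to 48.2 CPM in shscramble, whereas in the input the groups of both genes overlap.

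The study checked its METTL1 knockdown in LNCaP-AI by RT-qPCR and western blot, which are not part of these data. Within these data, the input is the nearest measure of METTL1 transcript level and so the more direct look at the knockdown. By counts the input was uneven. METTL1 had 17, 3 and 9 input reads in shMETTL1, against 35, 0 and 151 in shscramble. In CPM these were 4.38, 0.872 and 2.95 in shMETTL1, against 11.0, 0 and 46.7 in shscramble. The shMETTL1 libraries were all low, while shscramble held both the lowest and the highest library, so the groups overlapped. The mean was 2.73 ± 1.76 CPM in shMETTL1 and 19.2 ± 24.4 CPM in shscramble (SD, n = 3 each). The edgeR log2 fold change was -2.80 (SE 1.57, Benjamini-Hochberg adjusted p = 0.81), with 0% of 11740 genes called in either direction at an adjusted p under 0.05. The same test gave 735 genes at an unadjusted p under 0.05, and DESeq2 called 35. Without shscramble replicate 2, the library with no METTL1 read, the log2 fold change was -3.39 (SE 1.13, edgeR adjusted p = 0.58, with an unadjusted p under 0.05). In that fit 431 of 12550 genes were lower at an unadjusted p under 0.05. The METTL1 log2 fold change was -1.001 without shscramble replicate 3, -1.27 with limma voom and -1.69 with the highest position per gene.

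Coverage gave a wider view of the same input libraries, because it takes in reads that pass over a listed position without being assigned to it. This comparison was added after the counts had been seen. Summed over its positions, METTL1 coverage was 135, 69 and 38 in shMETTL1, against 233, 1504 and 1190 in shscramble. As relative coverage, scaled to 1000000 of each library's summed coverage, this was 3.22, 1.52 and 0.936 in shMETTL1, against 4.84, 31.4 and 25.8 in shscramble. Every shMETTL1 library was thus below every shscramble library, including shscramble replicate 2, which had no METTL1 read by count.

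The mean relative coverage of METTL1 in the input was 1.89 ± 1.18 in shMETTL1 and 20.7 ± 14.0 in shscramble, 10.9-fold higher in shscramble (SD, n = 3 each; exact two-sided permutation test, p = 0.1, the smallest that 3 against 3 allow, and 0.25 after Benjamini-Hochberg adjustment over 20 such comparisons). Groups that did not overlap in this direction were found for 3.32% of genes. The same read can span several positions, so the sum counts some reads more than once. The highest coverage at any 1 METTL1 position, which does not, was 14, 15 and 8 in the shMETTL1 inputs, against 40, 216 and 130 in the shscramble inputs. These groups did not overlap either, as was true of 7.97% of genes in this direction.

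The shscramble replicate 2 input joined the largest METTL1 coverage to a count of 0. Its coverage was 213 to 216 at 7 positions and 0 at all others, and none of those positions had a read assigned to it. The other shscramble inputs covered 17 and 23 METTL1 positions and the shMETTL1 inputs 20, 16 and 13. Whether the stacked coverage of replicate 2 came from few original molecules was not tested.

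**Figure D2:**
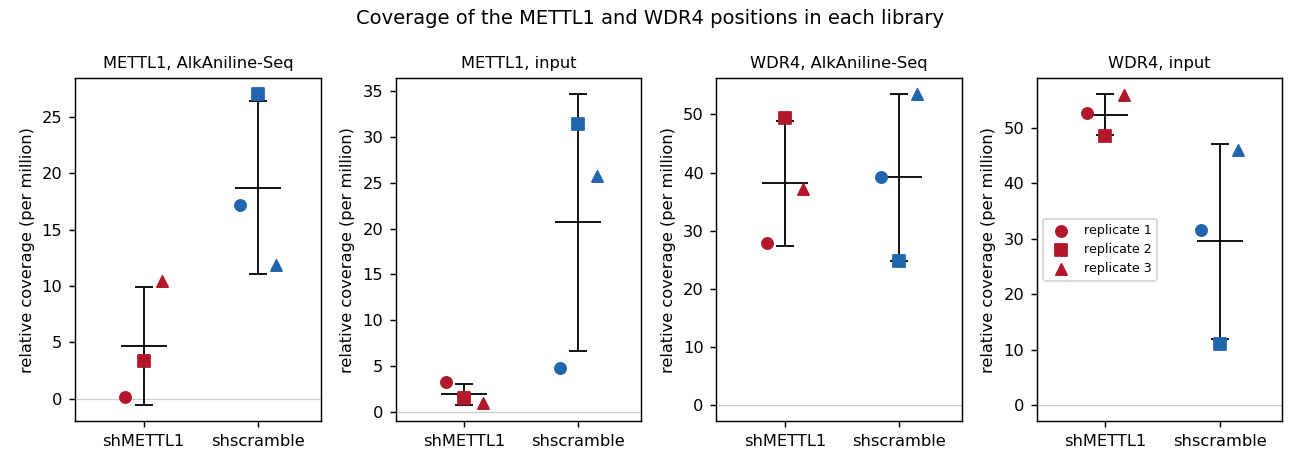
Coverage of METTL1 and WDR4 summed over their positions and scaled to 1000000 of each library's coverage, with shMETTL1 left of shscramble; points are libraries and bars give the mean and SD of 3 replicates. METTL1 relative coverage in the input lies at 0.936 to 3.22 in shMETTL1 and at 4.84 to 31.4 in shscramble.

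METTL1 coverage in the AlkAniline-Seq libraries was 8, 148 and 371 in shMETTL1, against 425, 1002 and 256 in shscramble. Relative coverage was 0.204, 3.36 and 10.4 in shMETTL1, against 17.2, 27.0 and 11.9 in shscramble. The groups did not overlap, but shMETTL1 replicate 3 and shscramble replicate 3 were close. The means were 4.66 ± 5.24 in shMETTL1 and 18.7 ± 7.67 in shscramble (SD, n = 3 each; exact two-sided permutation test, p = 0.1, adjusted 0.25), and 9.25% of genes were separated in this direction. The log2 ratio of the means was -2.003 with all libraries and -2.06 without shscramble replicate 1. It was -3.39 without shMETTL1 replicate 3 and -1.44 without shMETTL1 replicate 1.

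The highest METTL1 coverage at a position was 1, 133 and 91 in shMETTL1 AlkAniline-Seq libraries, against 60, 157 and 60 in shscramble, and here the groups overlapped. In shMETTL1 replicate 2, nearly all of the coverage lay at position 17 (133 of 148). In shMETTL1 replicate 3 the coverage was 88 to 91 at 4 positions. Reads over METTL1 were thus present in the AlkAniline-Seq libraries of both of these knockdown replicates.

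Relative to coverage, METTL1 counts were also low in the knockdown AlkAniline-Seq libraries. The summed count was 0%, 2.70% and 0.809% of the summed coverage in shMETTL1, against 20.9%, 13.0% and 2.73% in shscramble. The lowest shscramble library lay just above the highest shMETTL1 library. The means were 1.17 ± 1.39% in shMETTL1 and 12.2 ± 9.13% in shscramble (SD, n = 3 each; exact two-sided permutation test, p = 0.1, adjusted 0.25), and 6.92% of genes were separated in this direction. The difference of -11.05 percentage points was -6.68 points without shscramble replicate 1. The first of the knockdown values rests on a coverage of 8. In the input the share was 12.6%, 4.35% and 23.7% in shMETTL1, against 15.02%, 0% and 12.7% in shscramble, and the groups overlapped. No counting interval is given for these shares, since a read can enter the coverage of several positions.

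AlkAniline-Seq reads set against input reads gave a METTL1 difference with a wide error. The interaction of group and assay over the 12 libraries gave a log2 fold change of -2.18 (SE 2.21, edgeR adjusted p = 0.83). Of 12877 genes tested, 0.00777% were called lower and 0% higher. Leaving out 1 replicate with its input moved the METTL1 value between -4.46 and -1.12, and it was -1.64 without replicate 1 of shscramble. These fits did not pair each AlkAniline-Seq library with its own input. A fit with a term for each sample, which does, gave METTL1 -3.49 (SE 3.29, edgeR adjusted p = 0.957).

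The position data showed where the METTL1 reads lay. Of 26 positions, 16 had a read in some AlkAniline-Seq library, of which 3 were read in shMETTL1 alone, 12 in shscramble alone and 1 in both. The number of positions with a read was 0, 3 and 1 in shMETTL1 libraries, against 10, 5 and 4 in shscramble libraries (exact two-sided permutation test, p = 0.1, adjusted 0.25). The groups did not overlap, with or without shscramble replicate 1, and with it the same was true of 5.98% of genes in this direction. No METTL1 position was read in more than 2 of the 6 AlkAniline-Seq libraries, and 9 of the 16 were read in exactly 1. In the input 20 positions were read, 10 of them also read in AlkAniline-Seq.

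No METTL1 position held more than 3 reads in a shMETTL1 AlkAniline-Seq library, while 6 positions held at least 10 in a shscramble library. Position 8 had 4, 39 and 0 reads in shscramble replicates 1, 2 and 3. Position 21 had 1, 43 and 0. Position 20 had 2, 12 and 0. All of these had no read in shMETTL1 AlkAniline-Seq, and shscramble replicate 1 followed replicate 2 at 0.0233 to 0.167 times its count. Coverage in shMETTL1 AlkAniline-Seq replicates 1, 2 and 3 was 0, 1 and 2 at position 8. It was 0, 0 and 2 at position 21, and 1, 0 and 0 at position 20. With so few spanning reads, the lack of reads in shMETTL1 cannot show a lower share at these positions. Positions 10 and 17 were deep in shscramble replicate 1 alone, with 38 and 31 reads. Position 10 had a coverage of 0, 0 and 1 in shMETTL1 AlkAniline-Seq. Position 17 was also the one position read in both groups, with 1 read of a coverage of 133 in shMETTL1 replicate 2 (0.752%, exact Clopper-Pearson 95% interval 0.0190 to 4.12) against 31 of 33 in shscramble replicate 1 (93.9%, 79.8 to 99.3). These intervals do not overlap, but each describes 1 library and not its group.

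Position 16 was the METTL1 position with reads in most shscramble libraries over both assays and with none in shMETTL1. In AlkAniline-Seq it had 0, 0 and 0 reads in shMETTL1, against 7, 31 and 0 in shscramble. In the input it had 0, 0 and 0 reads in shMETTL1, against 18, 0 and 48 in shscramble. Only 1 knockdown library had a coverage of at least 10 there, with 0 of 88 reads in AlkAniline-Seq replicate 3, which allows a share of up to 3.41%. In shscramble AlkAniline-Seq the share was 33.3% (7 of 21, 95% interval 14.6 to 57.0), 28.2% (31 of 110, 20.0 to 37.6) and 0% (0 of 60, which allows up to 5%). In shscramble input it was 69.2% (18 of 26), 0% (0 of 216) and 54.5% (48 of 88). Shares at this position thus ranged as widely within shscramble as between the groups, and reads gathered at it without the m7G chemistry.

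**Figure D3:**
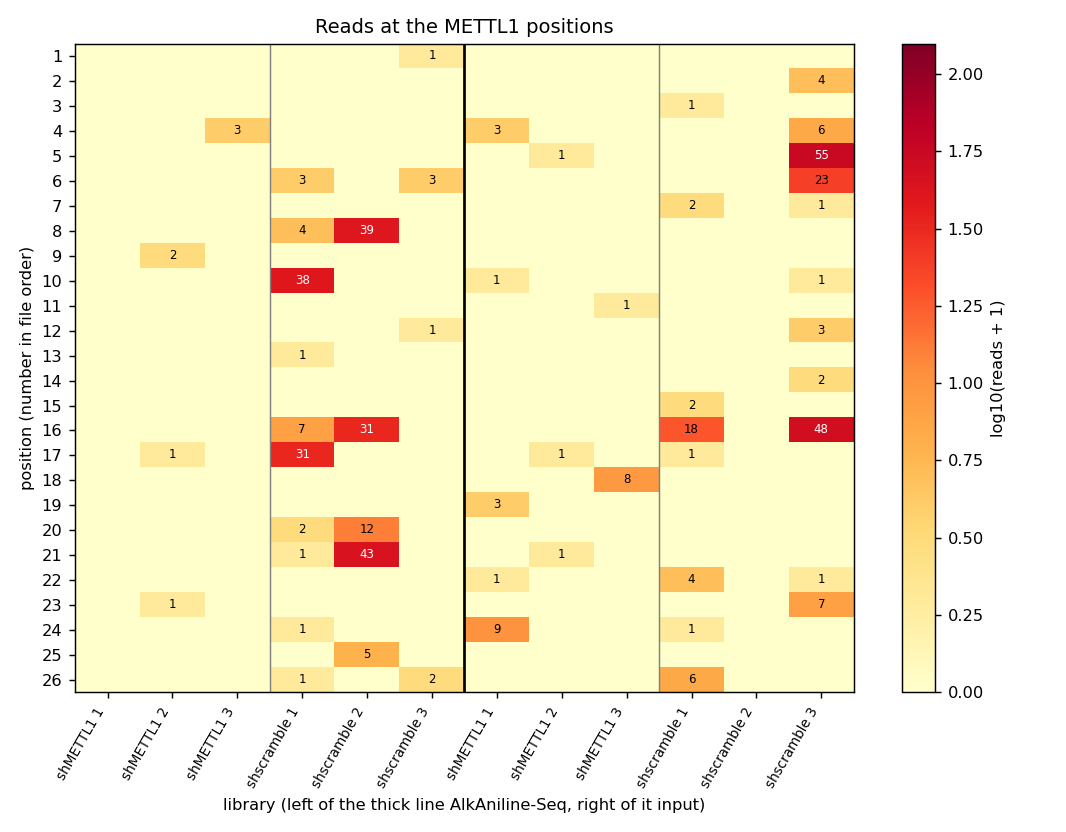
Reads at each of the 26 METTL1 positions (in listed order) in each library, AlkAniline-Seq and input, with shMETTL1 libraries left of shscramble; colour gives the read number. The shMETTL1 AlkAniline-Seq libraries hold 0 to 3 reads at any position, and the deep positions of shscramble differ between its replicates.

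The 7 METTL1 reads of the shMETTL1 AlkAniline-Seq libraries lay at 4 positions. Replicate 3 had 3 reads at position 4, of a coverage of 91 (3.30%, 95% interval 0.685 to 9.33). Replicate 2 had 2 reads at position 9 and 1 each at positions 17 and 23. At position 4 the shscramble AlkAniline-Seq libraries had 0 reads of coverages of 21, 110 and 60. With 3 reads in 1 library the depth does not allow the groups to be told apart there. In the input, the deepest position was position 5 of shscramble replicate 3, with 55 reads of a coverage of 55, and the deepest in a shMETTL1 input was position 24 of replicate 1, with 9 of 12.

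WDR4 went the other way in AlkAniline-Seq counts. WDR4 had 225, 245 and 114 reads in shMETTL1, against 73, 104 and 27 in shscramble. In CPM these were 86.4, 97.9 and 47.9 in shMETTL1, against 39.5, 38.4 and 18.9 in shscramble. The lowest shMETTL1 library exceeded the highest of shscramble, which was so for 7.1% of genes tested. The mean was 77.4 ± 26.2 CPM in shMETTL1 and 32.3 ± 11.6 CPM in shscramble, 2.40-fold higher in shMETTL1 (SD, n = 3 each).

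The difference did not pass the test, with a log2 fold change of 1.26 (SE 0.87, edgeR Benjamini-Hochberg adjusted p = 0.86). No gene was called higher by edgeR at an adjusted p under 0.05 (0%), and 3.84% were higher at an unadjusted p under 0.05. Without 1 replicate at a time the WDR4 log2 fold change lay between 1.02 and 1.53, and it was 1.42 without shscramble replicate 1.

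WDR4 coverage in AlkAniline-Seq did not share that order. It was 1097, 2177 and 1321 in shMETTL1, against 973, 918 and 1150 in shscramble. Relative coverage was 27.9, 49.4 and 37.1 in shMETTL1, against 39.3, 24.7 and 53.4 in shscramble, with overlapping groups (exact two-sided permutation test, p = 0.9). Reads as a share of coverage were 20.5%, 11.3% and 8.63% in shMETTL1, against 7.503%, 11.3% and 2.35% in shscramble, also overlapping (exact two-sided permutation test, p = 0.3). The difference in mean share was 6.405 percentage points with all libraries and 6.63 without shscramble replicate 1, and the log2 ratio of mean relative coverage was -0.04 and -0.03.

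In the input, WDR4 counts did not separate the groups. WDR4 had 152, 117 and 77 input reads in shMETTL1, against 153, 76 and 107 in shscramble. In CPM these were 39.2, 34.0 and 25.3 in shMETTL1, against 48.1, 37.0 and 33.1 in shscramble, and the groups overlapped. The mean was 32.8 ± 7.03 CPM in shMETTL1 and 39.4 ± 7.79 CPM in shscramble (SD, n = 3 each). The log2 fold change was -0.26 (SE 0.88, edgeR adjusted p = 0.98), and it changed sign to 0.03 when libraries were scaled by their totals alone. That scaling gave a median of all genes in the input of 0.22, against -0.04 with TMM, so relative to the median WDR4 was lower under both.

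By summed coverage, WDR4 was higher in the shMETTL1 inputs. Its coverage was 2211, 2203 and 2269 in shMETTL1, against 1524, 525 and 2122 in shscramble. Relative coverage was 52.7, 48.5 and 55.9 in shMETTL1, against 31.6, 11.0 and 46.0 in shscramble. The groups did not overlap, and 12% of genes were separated in this direction (exact two-sided permutation test, p = 0.1, adjusted 0.25). The highest coverage at any 1 WDR4 position was 226, 184 and 247 in shMETTL1 inputs. It was 135, 162 and 231 in shscramble inputs, and there the groups overlapped. The log2 ratio of means was 0.83 for relative coverage, 0.43 for it without shscramble replicate 2, and 0.32 by highest coverage. WDR4 input reads spread over 30, 23 and 23 positions in shMETTL1, against 12, 5 and 13 in shscramble, with no overlap, as for 14.5% of genes. Over all genes, input reads lay at 311979, 153839 and 165105 positions in shMETTL1, against 158448, 72098 and 154432 in shscramble. As a share of coverage, WDR4 input reads were 6.87%, 5.31% and 3.39% in shMETTL1, against 10.04%, 14.5% and 5.04% in shscramble (exact two-sided permutation test, p = 0.3).

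Set against its input, WDR4 had a log2 fold change of 1.66 in AlkAniline-Seq reads (SE 1.16, edgeR adjusted p = 0.74). It was 1.56 without replicate 1 of shscramble, and 1.67 with a term for each sample. The METTL1 value with all libraries and no such term was negative, at -2.18, and neither gene was past the threshold.

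**Figure D4:**
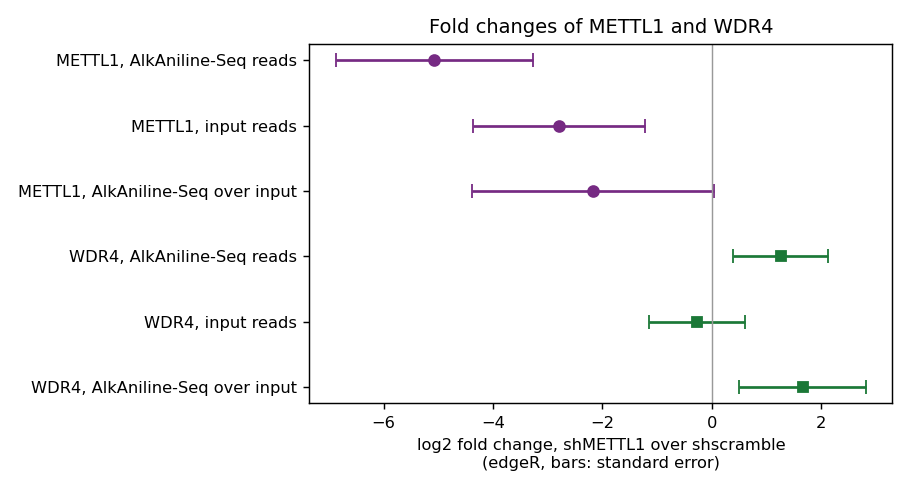
Log2 fold change of METTL1 and WDR4, shMETTL1 over shscramble, from edgeR for AlkAniline-Seq reads, input reads and AlkAniline-Seq over input; bars give 1 standard error and the vertical line marks no change. METTL1 lies at -5.07, -2.80 and -2.18 and WDR4 at 1.26, -0.26 and 1.66, none with an adjusted p under 0.05.

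The WDR4 reads of each library lay at few positions, and the positions differed between replicates. The deepest position took 29.8%, 50.6% and 80.7% of the WDR4 AlkAniline-Seq reads in shMETTL1, against 28.8%, 59.6% and 66.7% in shscramble. In shMETTL1 replicate 1 these were positions 24 and 10, with 67 and 48 reads. In replicate 2 they were positions 29 and 30, with 124 and 94. In replicate 3 it was position 27, with 92. At positions 10, 24, 27 and 29 the other 5 AlkAniline-Seq libraries had 0 or 1 read each, and at position 30 the other knockdown replicates had 1 and 0.

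Position 30 was the one WDR4 position with at least 10 AlkAniline-Seq reads in a library of each group. It had 1, 94 and 0 reads in shMETTL1, against 21, 7 and 0 in shscramble. The share of its coverage was 45.0% in shMETTL1 replicate 2 (94 of 209, exact Clopper-Pearson 95% interval 38.1 to 52.0) and 51.2% in shscramble replicate 1 (21 of 41, 35.1 to 67.1), and these intervals overlapped. Position 83 was deep in shscramble only, with 13, 62 and 0 reads there and none in shMETTL1 AlkAniline-Seq. Position 91 had 4, 0 and 18 reads in shscramble and none in shMETTL1. Neither position had any coverage in the shMETTL1 AlkAniline-Seq libraries.

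**Figure D5:**
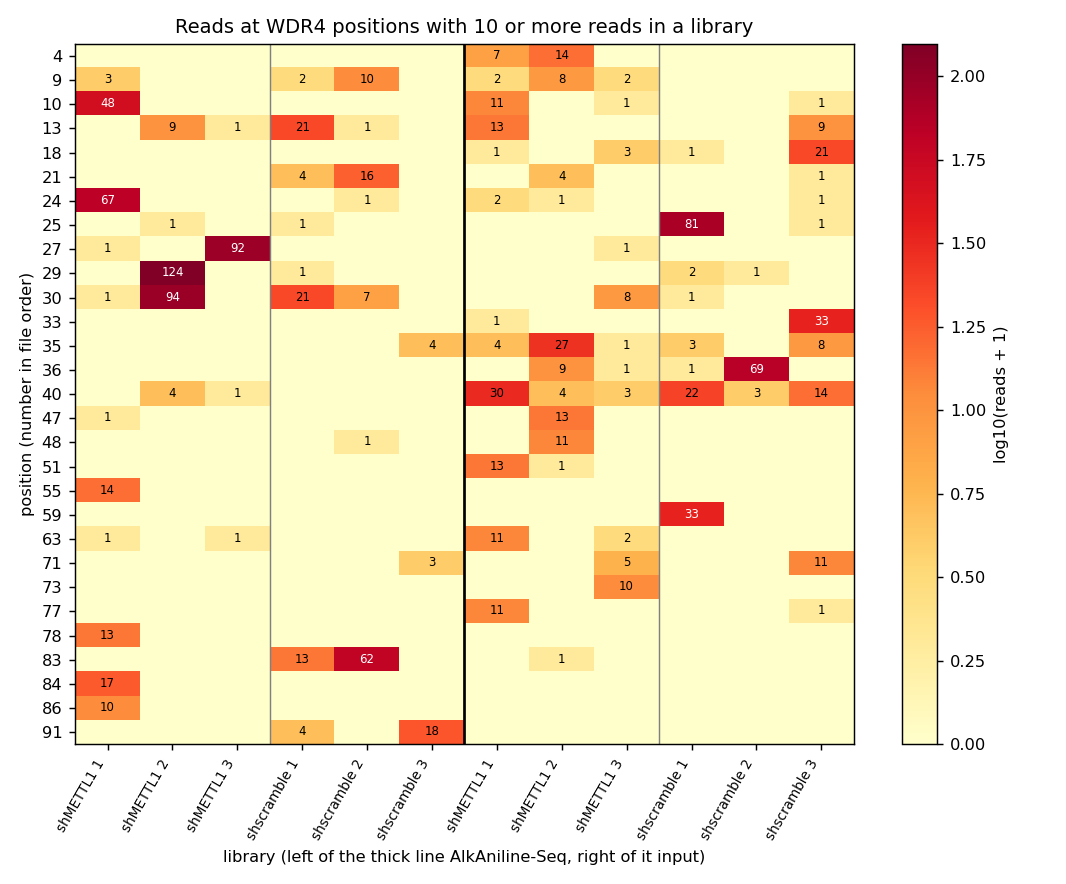
Reads in each AlkAniline-Seq and input library at the WDR4 positions with at least 10 reads in some library, in listed order. The shMETTL1 libraries lie left of shscramble, and colour gives the read number. The deepest AlkAniline-Seq positions differ between the 3 shMETTL1 replicates, at 67, 124 and 92 reads.

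Of the 98 WDR4 positions, 47 were read in AlkAniline-Seq, 30 of them in shMETTL1 alone, 11 in shscramble alone and 6 in both groups. No position was read in more than 4 of the 6 libraries, and 33 were read in exactly 1. In the input 70 positions were read, 49 of them in a single library, and 19 had reads in both assays. Position 40 was the one WDR4 position read in all 6 input libraries, with 30, 4 and 3 reads in shMETTL1, against 22, 3 and 14 in shscramble, and in AlkAniline-Seq it had 0, 4 and 1 reads in shMETTL1 and none in shscramble.

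With all libraries, no test called a single position of METTL1 or WDR4. Of 13973 positions that passed the filter on low counts over all genes, 0 were among the 124 of METTL1 and WDR4, and edgeR called 0% of those tested (unadjusted p under 0.05 at 1143 positions, against 177 calls higher and 536 lower by DESeq2). With no filter, 16 METTL1 and 47 WDR4 positions were tested and 0 were called. The methods' t-test takes each position's deposited fold over input. At the METTL1 and WDR4 positions this fold was 0 where AlkAniline-Seq had no read. It was 1 plus the fraction where the input fraction was 0. Where 1 group's mean fold was 0, the ratio of the groups was set here to the other mean plus 1, or its inverse. At a ratio past 1.5 in either direction with unadjusted p under 0.05, the test called 1.05% of 404685 positions lower and 0.203% higher. It called 0 of the 16 METTL1 and 0 of the 47 WDR4 positions. Without shscramble replicate 1 it called 0 of 13 METTL1 and 0 of 46 WDR4 positions. Without shscramble replicate 3 it called 3 of 14 METTL1 and 3 of 44 WDR4 positions lower, where 8.29% of all positions tested were called lower. Without shscramble replicate 2 it called 2 of 45 WDR4 positions lower, against 5.98% of all. Without shMETTL1 replicate 2 it called 1 of 43 WDR4 positions higher, against 1.26% of all.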

How the data were processed

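LNCaP-AI libraries of AlkAniline-Seq and of input were compared between shMETTL1 and shscramble, with 3 replicates of each. According to the submitters' processing notes, the build was hg19 and the tools were bedtools 2.24, Bowtie2 2.2.4 and cutadapt 1.9.1. Their settings, the gene annotation and any use of strand were not given in the sources used here, so reads of overlapping or antisense genes cannot be told apart. The authors deposited a count of reads at each position, the coverage by reads, a fraction (count over coverage) and a ratio that sets this fraction against the one in the input as a fold. The deposited counts never exceeded the coverage, and the deposited fraction equalled count over coverage within 5e-10. Positions were matched between libraries by their listed order. The deposited fold, which was not a plain ratio where the input fraction was 0, was used only for the methods' t-test.

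Counts were summed per gene identifier and library and tested over all genes with the quasi-likelihood test of edgeR 4.0.16 under R 4.3.3 (TMM, minimum count 10, minimum total 15, Benjamini-Hochberg threshold 0.05). The step was tested on simulated data. AlkAniline-Seq over input was the interaction over 12 libraries. DESeq2 1.42.0, limma 3.58.1 (voom), other scalings, no filter, other ways of summing positions, a replicate block and leaving out each replicate were alternatives. Shares and coverage were compared by exact permutation with scipy 1.17.1. The coverage comparisons, and DESeq2 and the methods' t-test without shscramble replicate 1, were chosen after seeing the data.

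METTL1 and WDR4 were always to be named, with lists of other tRNA methyltransferases, neighbouring genes, cell markers and the genes most like them. Members and lists were chosen with earlier results of these data known. The lists are by symbol, 0 of the 18569 identifiers matched the 59792 genes of the reference table, and so they were not used here, and the cell line was not checked against its markers. The table is of GRCh38.p14, another build than that of the files, so no coordinates are given.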

Additional observations from a re-analysis of the deposited data

How the results depend on the processing

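For METTL1 and WDR4, 15 results were recomputed under 161 alternatives. Of these, 153 kept the direction and the side of the threshold, 7 changed direction and 1 passed the threshold. Shares and coverage could not cross the threshold, since their exact p is never below 0.1 or was not computed. Some position fits held no METTL1 or WDR4 position. The tally leaves out the methods' t-test without any replicate other than shscramble replicate 1, whose calls are given above. The 1 that passed was METTL1 in AlkAniline-Seq with DESeq2 (log2 fold change -5.13, adjusted p = 0.043). Its other settings gave -5.32 to -4.78, and leaving out 1 replicate gave -5.63 to -4.48 with edgeR adjusted p of 0.47 to 0.97. With the highest position per gene, or positions read in at least 2 libraries, METTL1 did not pass the filter in AlkAniline-Seq. METTL1 input reads (-2.80) were -1.27 with limma voom, -1.69 with the highest position per gene and -3.39 to -1.001 without 1 replicate. METTL1 coverage in AlkAniline-Seq (log2 ratio -2.003) was -0.30 by highest coverage and -3.39 to -1.44 without 1 replicate. WDR4 input reads changed sign with library size alone (0.032). The METTL1 share of coverage in the input, 4.30 percentage points higher in shMETTL1, lay between -0.77 and 8.90 points without 1 replicate, and was negative without shMETTL1 replicate 3 or shscramble replicate 2. WDR4 coverage in AlkAniline-Seq had a log2 ratio of -0.04 after scaling to library coverage, 0.16 by highest coverage, 0.60 as deposited and -0.28 to 0.25 without 1 replicate. The cause was not tested. The coverage minimum of 10 gave no METTL1 share, since a shMETTL1 library of each assay had no such position, and the tRNA methyltransferase list was not run.

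The replicate numbers did not pair the samples: same-numbered deviations correlated at 0.0078, -0.014 and 0.017 in AlkAniline-Seq and 0.051, 0.012 and -0.025 in the input, and not every sample correlated best with its own number. With the number as a block, METTL1 in AlkAniline-Seq was -4.87 (edgeR adjusted p = 0.84) and in the input -1.42, and the block changed no call of METTL1 or WDR4. Genes called over all were 1 in AlkAniline-Seq, 0 in the input and 1 over input with edgeR, 3, 2 and 1 with the block, 178, 35 and 96 with DESeq2, and 19, 95 and 31 with no filter. Over input, scaling by totals gave a median of all genes of -0.28, against 0.24 with TMM. METTL1 had at most 17 reads in any shMETTL1 library, which limits its precision.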
